A study of Homo sapiens with 12 samples.

Results

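The genes followed here are 38 enzymes of phase I metabolism: 24 cytochromes P450 and 14 other enzymes, made up of the P450 electron donor POR, 3 carboxylesterases, 2 flavin monooxygenases, 5 alcohol or aldehyde dehydrogenases, the dehydrogenase DHRS2 and 2 epoxide hydrolases. They were chosen by gene symbol alone, and all 38 were found among the 60612 genes of the count table. Of these, 30 had enough reads to test (17 of the 24 P450s and 13 of the 14 other genes), and 8 were too low. Over the whole series 17779 genes could be tested.

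The cells were HepG2, an established human line grown from a liver tumour, which keeps many hepatocyte genes but makes much less of several drug-metabolising P450s than liver does. One dose of the herbicide 2,4-D, 0.001 µM in the medium, was given for 10, 30 or 360 min, and the 0 min cells were untreated. Each time had 3 biological replicates, 12 libraries of poly(A)-selected RNA in all. No untreated cells kept for 10, 30 or 360 min were analysed here, so exposure and elapsed time cannot be told apart. All 3 comparisons with 0 min share the same 0 min libraries.

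Phase I enzymes put a reactive group on drugs, pollutants, steroids, retinoids and fatty acids, or uncover one, so that the product can be conjugated and excreted. P450s do this by oxidation with heme iron and take their electrons from POR, while esterases and epoxide hydrolases split bonds with water and dehydrogenases move hydrogen between substrate and cofactor. In liver, many of these genes are switched on by receptors that bind foreign chemicals, such as the aryl hydrocarbon receptor AHR, the pregnane X receptor NR1I2 and the constitutive androstane receptor NR1I3.

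Libraries held 29766148 to 83539763 counts, so that a limit of 3 counts lay between 0.0359 and 0.101 CPM, the count scaled to library size. Levels are given as TMM-scaled CPM, or as RPKM (CPM per kilobase of exon) where genes are compared with each other. All 9 hepatocyte markers, ALB, APOA1, APOB and AFP among them, were detected in every library. Their summed level was 33673 to 34802 CPM at 360 min, 33613 to 34096 CPM at 10 min and 32503 to 32960 CPM at 30 min, against 30451 to 32897 CPM at 0 min, so that the 10 and 360 min libraries lay above those of 0 min. Of 10 markers of blood, endothelial, stromal and bile duct cells, PTPRC, DCN and KRT7 were at 0 in every library, and the summed level, mostly ACTA2, was 58.5 to 63.0 CPM at 360 min against 50.1 to 57.5 CPM at 0 min, with 51.6 to 54.8 CPM at 10 min and 50.8 to 52.0 CPM at 30 min; the part of these markers in the results was not tested. The share of counts from mitochondrial genes split the libraries into 7 at 3.55 to 4.39% (replicate 1 at 0 min, all 3 at 10 min, replicates 2 and 3 at 30 min, replicate 3 at 360 min) and 5 at 2.52 to 2.74%. All 10 min libraries were thus on the higher side. The split entered 1 of the alternative fits as a term, but its cause was not tested. Values within each side are given beside the changes called against 0 min. The higher side held only replicate 1 at 0 min and replicate 3 at 360 min, and the lower side only replicate 1 at 30 min. Comparisons within a side that use these groups have no replicates there.

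In the untreated cells the genes covered a wide range of levels. ALDH1A1, which oxidises retinal and other aldehydes, had the highest mean RPKM at 132 ± 1.8 (SD, n = 3). DHRS2, a short-chain dehydrogenase that reduces carbonyl compounds, came next at 70.9 ± 0.98 RPKM. POR followed at 41.6 ± 1.3 RPKM. The next was CYP2W1, a P450 of fetal tissue and tumours, at 38.1 ± 2.1 RPKM, and it was the highest of the 24 P450s followed here. The libraries of POR and CYP2W1 overlapped in RPKM, while ALDH1A1 and DHRS2 stood apart from each other and from both. This order depends on the length used, all annotated exons of a gene joined, 7556 bases for DHRS2 and 2849 for ALDH1A1. In CPM DHRS2 was above ALDH1A1, at 536 and 377, with POR at 254 and CYP2W1 at 106. In all, 9 of the 38 genes were over 10 RPKM, the other 5 being ADH5 (34.7 RPKM), EPHX1 (22.8), CES2 (20.0), FMO5 (19.5) and ALDH2 (15.1).

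Below these, EPHX2 (9.2 RPKM), CYP2S1 (8.04), CYP20A1 (6.48) and ADH6 (5.11) led a broad middle group. The CYP4F genes lay between 1.43 RPKM (CYP4F2) and 3.95 RPKM (CYP4F11). CYP2B6 was at 3.49 ± 0.22 RPKM and CYP3A5 at 1.48 ± 0.19 RPKM. CYP2D6, the polymorphic enzyme of many antidepressants and opioids, was at 0.829 ± 0.11 RPKM, and CYP3A7, the CYP3A of fetal liver, at 0.359 ± 0.051 RPKM. The plot of levels in every library shows this order.

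**Figure D1:**
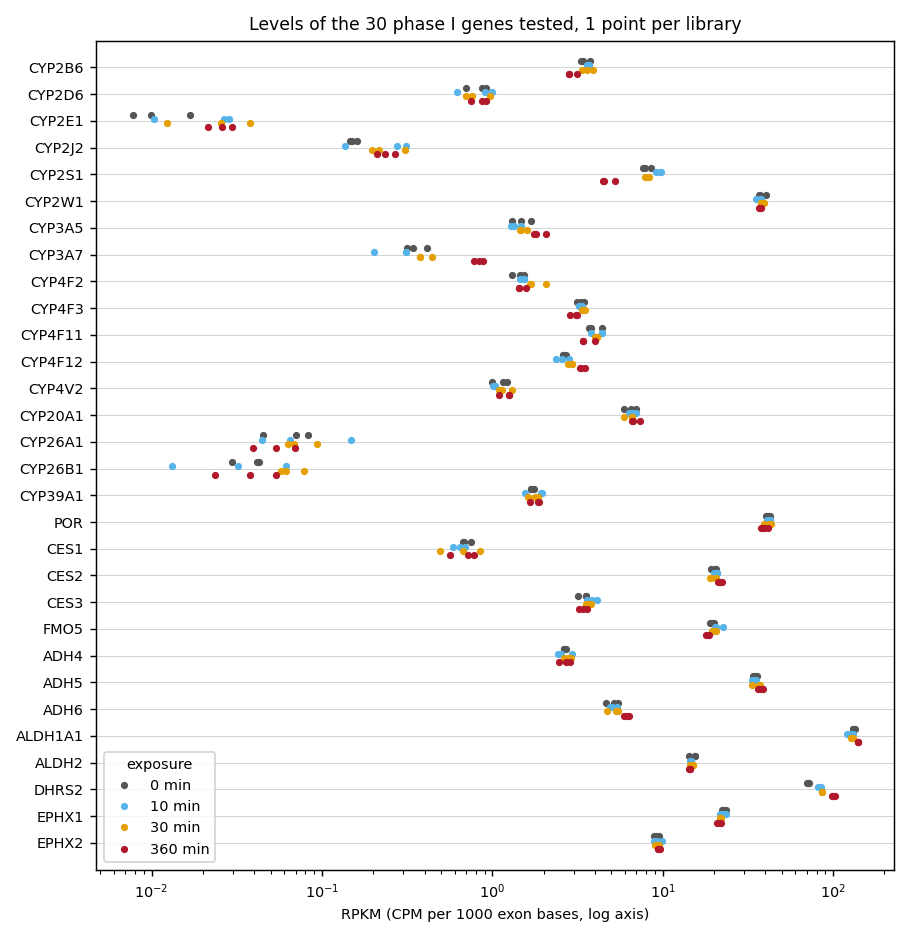
Level of each of the 30 phase I genes tested, in RPKM on a log axis, with 1 point per library coloured by exposure time. ALDH1A1, at a mean of 132 RPKM in untreated cells, is the highest and CYP2E1, at 0.0114 RPKM, the lowest, and CYP3A7, CYP2S1 and DHRS2 show 360 min points apart from the others.

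The 8 genes too low to test included several P450s of adult liver drug oxidation. CYP3A4, the main drug-oxidising P450 of adult liver, had counts in 8 of 12 libraries and never more than 10. CYP2C8 had at most 16 counts, in 11 libraries. CYP2C19, which acts on several proton pump inhibitors, had 0 counts in every library, and CYP2A6, the nicotine-oxidising P450, had 2 counts in 1 library. CYP4X1 was at 0 in every library, CYP2C18 reached 7 counts in 5 libraries, CYP2U1 11 counts in 12 libraries, and FMO4 8 counts in 4 libraries. No fold change is given for these 8 genes. Another 4 genes were tested but averaged under 1 CPM in untreated cells: CYP2E1, the ethanol-oxidising P450; CYP2J2, an arachidonic acid epoxygenase; and CYP26A1 and CYP26B1, which clear retinoic acid. The remaining 26 tested genes were over 1 CPM, with a coefficient of variation between the 0 min replicates of 1.07 to 14.2%.

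DHRS2 was called at every exposure time. It had 617, 643 and 631 CPM at 10 min, against 544, 535 and 529 CPM at 0 min. At 30 min it had 649, 647 and 651 CPM, and at 360 min 743, 757 and 776 CPM. The libraries of no 2 times overlapped. The fold changes against 0 min were 1.18 at 10 min (log2 0.23 ± 0.03 SE, adjusted p = 0.0172), 1.21 at 30 min (log2 0.28 ± 0.03, adjusted p = 5.7e-04) and 1.42 at 360 min (log2 0.50 ± 0.03, adjusted p = 4.8e-07) by edgeR's quasi-likelihood test with Benjamini-Hochberg adjustment over all genes tested. The step between 30 and 10 min was log2 0.04 ± 0.03 and was not called (adjusted p = 0.61), and that between 360 and 30 min was log2 0.23 ± 0.03 (adjusted p = 1.5e-04). As these are bulk RNA measurements, a change in the number of cells with a transcript and a change in transcript per cell cannot be told apart.

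The DHRS2 call at 10 min was near the threshold. It was lost without replicate 2 at 0 min (adjusted p = 0.091), without replicate 3 at 0 min (0.119), without replicate 1 at 10 min (0.056) and without replicate 3 at 10 min (0.092), while the log2 change stayed between 0.21 and 0.25 under every alternative tried. It was also lost with the mitochondrial split as a term (adjusted p = 0.071), with the 2 groups alone (0.161) and with no filter on low counts (0.057). Among the libraries with the higher mitochondrial share alone, which hold 1 untreated library, the log2 change at 10 min was 0.21 (adjusted p = 0.457). At 30 min it was 0.28 on the lower side, with 1 library at 30 min, and 0.26 on the higher side, with 1 library at 0 min. At 360 min it was 0.49 on the lower side, where DHRS2 was called. On the higher side it was 0.51 at 360 min, with 1 library at each of the 2 times compared.

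DHRS2 lies on chromosome 14 at 23630115 to 23645639 on the plus strand of GRCh38, in the GENCODE 29 annotation. It shared no 100-base stretch of exon with any other gene, and its paralog DHRS4 had 7450 counts over the 12 libraries against 389283 for DHRS2. DHRS2 made up 32.4 ± 0.42% of the summed level of the 38 genes at 360 min, against 25.5 ± 0.24% at 0 min (SD, n = 3 each). The 38 genes together were at 2339 ± 28.8 CPM at 360 min, against 2099 ± 9.5 CPM at 0 min, and at 2187 ± 34.1 and 2211 ± 11.8 CPM at 10 and 30 min. Without DHRS2 the sums were 1580 ± 17.1 CPM at 360 min and 1563 ± 2.20 CPM at 0 min, and their ranges overlapped at 1561.99 to 1595.95 CPM and 1560.58 to 1564.75 CPM.

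No other phase I gene was called within the first 30 min. At 10 min against 0 min, 1 of the 30 genes was higher and 0 were lower, where 0.0112% of all 17779 genes were higher and 0.00562% lower. At 30 min against 0 min the count was again 1 higher and 0 lower, where 0.18% of all genes were higher and 0.585% lower. At 30 min against 10 min edgeR called 0 of the 30 genes, where 0.574% of all genes were called in either direction. DESeq2 and limma voom gave the same counts of phase I genes in these 3 comparisons. Over all genes DESeq2 called 172, 275 and 290, and limma voom 3, 170 and 72. By edgeR, 5, 4 and 4 of the 30 had an unadjusted p under 0.05, where 1941, 1652 and 2123 of all 17779 genes did.

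The genes with the smallest p that missed the threshold at early times were CYP2S1 and CYP4F2. CYP2S1 had 27.7, 27.9 and 26.3 CPM at 10 min, against 24.7, 21.9 and 22.8 CPM at 0 min, which did not overlap (log2 difference 0.24 ± 0.07, adjusted p = 0.215). CYP4F2, an omega-hydroxylase of arachidonic acid and vitamin K, had 5.25, 5.31 and 6.46 CPM at 30 min, against 4.10, 4.58 and 4.81 CPM at 0 min, also without overlap (log2 difference 0.33 ± 0.11, adjusted p = 0.295). The median log2 difference of the 30 genes was 0.02 at 10 min and 0.04 at 30 min, beside 0.00 at both times over all genes tested.

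At 360 min against 0 min, 5 of the 30 genes rose (DHRS2, CYP3A7, CYP4F12, CYP3A5 and ADH6) and 2 fell (CYP2S1 and CYP2B6). That is 16.7% and 6.67% of the 30, where 8.89% of all genes were higher and 9.19% lower. The median log2 difference was 0.05 for the 30 genes and 0.00 over all genes, and the median size of the difference without its sign was 0.10 for the 30 genes and 0.13 over all genes. The plot of changes shows most of the 30 genes close to 0 at all 3 times.

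**Figure D2:**
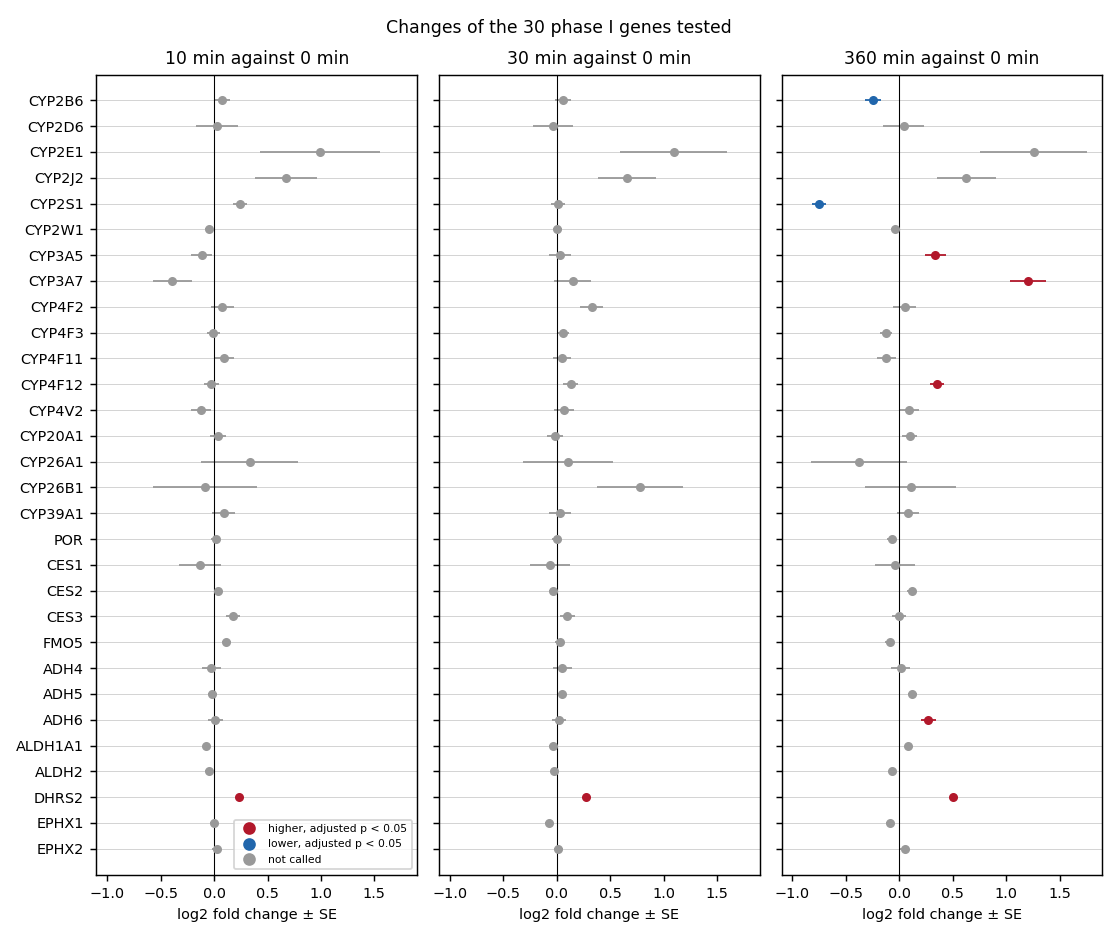
Log2 fold change with its standard error for each of the 30 phase I genes tested, at 10, 30 and 360 min against 0 min, coloured where the adjusted p was under 0.05 by edgeR's quasi-likelihood test. Only DHRS2 is coloured at 10 and 30 min, while 5 genes are coloured as higher and 2 as lower at 360 min.

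The promoters of 5 of the 7 genes called are given first, since CYP3A7 and CYP3A5 are neighbours that both rose, CYP2B6 and CYP2S1 lie in one P450 cluster and both fell, and DHRS2 was called at every time. Each is 250 bases before to 50 bases after the gene start in RefSeq, on GRCh38.p14, printed 5′ to 3′ on the strand of the gene, and that start can differ from the GENCODE one. They are CYP3A7 at chr7:99735147-99735446, minus strand; CYP3A5 at chr7:99679947-99680246, minus strand; CYP2S1 at chr19:41192969-41193268, plus strand; CYP2B6 at chr19:40991032-40991331, plus strand; and DHRS2 at chr14:23629865-23630164, plus strand. Capitals mark every match on either strand to the motifs searched.
CYP3A7: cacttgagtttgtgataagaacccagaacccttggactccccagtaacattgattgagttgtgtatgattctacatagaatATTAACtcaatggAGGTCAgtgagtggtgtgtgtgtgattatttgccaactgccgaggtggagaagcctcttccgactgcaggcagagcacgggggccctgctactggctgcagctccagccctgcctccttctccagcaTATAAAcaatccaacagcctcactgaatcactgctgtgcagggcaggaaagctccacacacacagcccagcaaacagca
CYP3A5: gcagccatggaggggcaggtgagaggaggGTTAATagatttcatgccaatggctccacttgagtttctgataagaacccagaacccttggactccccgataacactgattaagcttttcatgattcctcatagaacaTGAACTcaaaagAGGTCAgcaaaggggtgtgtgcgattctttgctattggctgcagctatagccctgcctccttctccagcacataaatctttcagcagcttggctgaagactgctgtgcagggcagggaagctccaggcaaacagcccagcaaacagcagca
CYP2S1: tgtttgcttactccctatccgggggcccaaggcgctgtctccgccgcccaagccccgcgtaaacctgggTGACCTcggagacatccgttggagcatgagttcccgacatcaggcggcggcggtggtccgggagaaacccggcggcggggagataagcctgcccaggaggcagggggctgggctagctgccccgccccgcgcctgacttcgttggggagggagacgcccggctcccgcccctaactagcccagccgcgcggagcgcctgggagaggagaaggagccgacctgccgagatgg
CYP2B6: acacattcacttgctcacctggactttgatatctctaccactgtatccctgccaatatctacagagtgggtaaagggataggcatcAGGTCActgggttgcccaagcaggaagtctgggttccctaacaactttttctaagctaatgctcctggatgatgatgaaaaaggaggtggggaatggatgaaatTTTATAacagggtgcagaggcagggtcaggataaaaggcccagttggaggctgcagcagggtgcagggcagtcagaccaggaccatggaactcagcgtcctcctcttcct
DHRS2: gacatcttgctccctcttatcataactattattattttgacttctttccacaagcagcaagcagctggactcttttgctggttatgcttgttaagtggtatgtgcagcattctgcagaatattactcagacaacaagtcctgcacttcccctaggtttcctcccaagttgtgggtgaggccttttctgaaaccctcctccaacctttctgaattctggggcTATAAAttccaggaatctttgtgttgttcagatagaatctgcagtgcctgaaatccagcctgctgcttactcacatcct

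The motifs searched, on both strands, were the core of the AHR element, GCGTG (in 36.5% of 35116 RefSeq promoters of this length), the nuclear receptor half-sites AGGTCA (13.8%) and also AGTTCA (10.4%), the TATA box TATAAA (11.5%) and the HNF1 half-site GTTAAT (6.88%). No capital run in these 5 windows belongs to more than 1 motif. Positions are those of the first printed base, counted from -1 for the base before the gene start. CYP3A5 held AGGTCA at -101, the reverse complement of AGTTCA at -113 and GTTAAT at -221. CYP3A7 held AGGTCA at -156, the reverse complement of GTTAAT at -169 and TATAAA at -29. CYP2B6 held AGGTCA at -164 and the reverse complement of TATAAA at -60, CYP2S1 held the reverse complement of AGGTCA at -181, and DHRS2 held TATAAA at -29. GCGTG was in none of these 5 windows. In a pairwise alignment, CYP3A7 shared 84.7% of aligned promoter bases with CYP3A5 and 94.3% with CYP3A4, which was too low to test. A match is only a description of the letters in these windows.

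Both measurable genes of the CYP3A cluster rose at 360 min. CYP3A7 hydroxylates steroids such as dehydroepiandrosterone sulfate in fetal liver. It had 3.38, 2.96 and 3.17 CPM at 360 min, against 1.21, 1.58 and 1.31 CPM at 0 min. Each 360 min library was above each 0, 10 and 30 min library, and the fold change against 0 min was 2.31 (log2 1.21 ± 0.17, adjusted p = 3.3e-04), with the highest log2 value of the genes called. At 10 min it had 1.19, 1.19 and 0.771 CPM and at 30 min 1.44, 1.70 and 1.43 CPM.

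CYP3A5, a drug-oxidising CYP3A that varies between people, changed less. It had 12.2, 11.8 and 13.9 CPM at 360 min, against 11.3, 10.0 and 8.78 CPM at 0 min, and the groups did not overlap, the closest libraries being those at 11.8 and 11.3 CPM. It had 8.69, 9.05 and 9.96 CPM at 10 min and 10.0, 10.9 and 9.79 CPM at 30 min, all below each 360 min library. Its fold change was 1.26 (log2 0.34 ± 0.10, adjusted p = 0.0327). The call was lost without replicate 2 at 0 min (adjusted p = 0.084), without replicate 3 at 0 min (0.126), without replicate 1 at 360 min (0.057) or without replicate 3 at 360 min (0.131). It was also lost in libraries of the lower mitochondrial share alone (log2 0.35, adjusted p = 0.074) and of the higher share alone (log2 0.29, adjusted p = 0.384), where CYP3A7 was at log2 1.13 (adjusted p = 0.01) and 1.39 (adjusted p = 0.107).

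The CYP3A genes lie side by side on the minus strand of chromosome 7 (GRCh38, GENCODE 29): CYP3A5 at 99648194 to 99680026, CYP3A7 at 99684957 to 99735196 and CYP3A4 at 99756960 to 99784265. CYP3A4 had 10, 6 and 6 counts at 360 min, against 0, 0 and 9 counts at 0 min. An annotated readthrough, CYP3A7-CYP3A51P, shares 1507 exon bases with CYP3A7 and 37.7% of its 100-base stretches, so reads could be split between them. The readthrough held 0 to 9 counts per library, 19 in all against 1136 for CYP3A7. CYP3A5 shared 0.17% of its 100-base stretches with any other gene. The CPM ratio of CYP3A7 to CYP3A5 was 0.252 ± 0.025 at 360 min and 0.138 ± 0.028 at 0 min (SD, n = 3 each), without overlap.

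**Figure D3:**
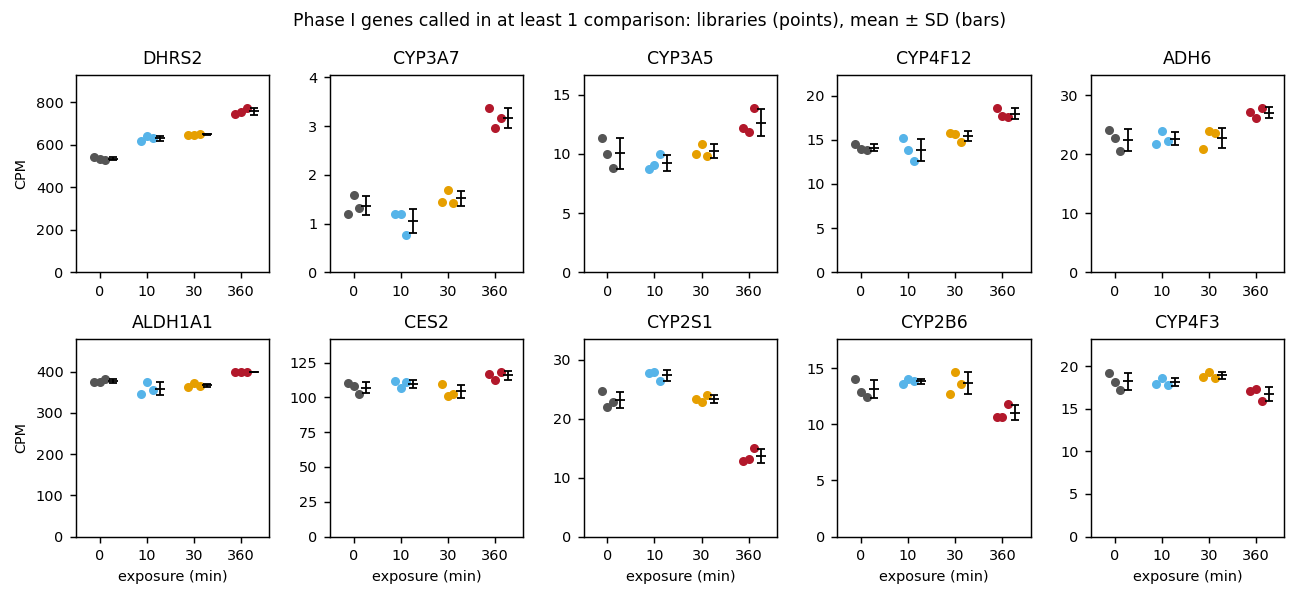
Level in CPM of the 10 phase I genes called in at least 1 comparison, with 1 point per library by exposure time and the mean ± SD of 3 libraries beside the points; each axis starts at 0. The DHRS2 points of the 4 times do not overlap, CYP3A7, CYP4F12, CYP3A5 and ADH6 have their highest points at 360 min, and CYP2S1 and CYP2B6 have their lowest points there.

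In the CYP2 family CYP2S1 and CYP2B6 fell at 360 min, 2 of the 6 genes tested, and 0 rose, where 9.19% of all genes were lower and 8.89% higher. The call of CYP2B6 was lost in 9 of 17 alternatives. CYP2S1, a P450 of epithelial tissues whose gene responds to AHR ligands, had 12.8, 13.1 and 15.1 CPM at 360 min, against 24.7, 21.9 and 22.8 CPM at 0 min. Every 360 min library was below every other library of the series. The 30 min libraries, at 23.3, 22.7 and 24.0 CPM, overlapped those of 0 min. Its level at 360 min was 0.593 of that at 0 min (log2 -0.75 ± 0.07, adjusted p = 1.4e-05) and 0.587 of that at 30 min (log2 -0.77 ± 0.07, adjusted p = 6.3e-06). The fall was called in every alternative with more than 1 library in each compared group. Its log2 values there were -0.84 to -0.71, among them -0.79 on the lower mitochondrial side. On the higher side, which sets replicate 3 at 360 min against replicate 1 at 0 min alone, the value was log2 -0.71.

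CYP2B6, which oxidises bupropion, efavirenz and cyclophosphamide and responds to the constitutive androstane receptor, had 10.6, 10.6 and 11.8 CPM at 360 min, against 14.0, 12.9 and 12.4 CPM at 0 min. The groups did not overlap (fold 0.841, log2 -0.25 ± 0.07, adjusted p = 0.0341). At 10 min it had 13.6, 14.0 and 13.9 CPM, within the range at 0 min. The call was lost without replicate 1 at 0 min (adjusted p = 0.101), without replicate 2 at 0 min (0.068), without replicate 1 at 360 min (0.115) and without replicate 2 at 360 min (0.099). It was lost within the lower (log2 -0.26, adjusted p = 0.089) and higher mitochondrial side (log2 -0.25, adjusted p = 0.351) as well. Against 30 min, where it had 12.7, 14.7 and 13.6 CPM, the fall was log2 -0.31 ± 0.07 (adjusted p = 0.0094). That call held without each single library and was lost within the lower (log2 -0.26, adjusted p = 0.141) and the higher mitochondrial side (log2 -0.26, adjusted p = 0.221). Reads of its near-identical pseudogene CYP2B7P came to 4 counts, against 7702 for CYP2B6.

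CYP2B6 (40991250 to 41018398) and CYP2S1 (41193049 to 41207539) lie on the plus strand of one cluster on chromosome 19 (GRCh38, GENCODE 29). The other 4 CYP2 genes tested were not called at any time. CYP2W1 had 103, 102 and 104 CPM at 360 min, against 112, 102 and 103 CPM at 0 min. CYP2D6 averaged 2.07 ± 0.21 CPM at 360 min and 2.02 ± 0.28 CPM at 0 min, but its pseudogene CYP2D7, with 1528 counts against 1208 for CYP2D6, shares many stretches with it and makes its counts uncertain. CYP2J2 had 0.627, 0.800 and 0.701 CPM at 360 min, against 0.482, 0.448 and 0.437 CPM at 0 min (log2 difference 0.63 ± 0.28, adjusted p = 0.147).

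CYP2E1 had 17, 7 and 18 counts at 360 min, against 6, 5 and 5 counts at 0 min. Its log2 difference of 1.26 ± 0.50 was as large as that of CYP3A7 but did not pass the test (adjusted p = 0.105). SYCE1 overlaps 2064 of its exon bases on the opposite strand and had 60 counts over the 12 libraries against 117 for CYP2E1, and whether the counting used strand was not given in the sources used here.

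Among the CYP4 genes, which oxidise the ends of fatty acid and eicosanoid chains, CYP4F12 rose at 360 min. It had 18.7, 17.7 and 17.6 CPM at 360 min, against 14.5, 13.9 and 13.8 CPM at 0 min, without overlap (fold 1.28, log2 0.35 ± 0.07, adjusted p = 0.0031). With 15.2, 13.8 and 12.6 CPM at 10 min and 15.8, 15.6 and 14.8 CPM at 30 min, it was below every 360 min library at both earlier exposures. The value was log2 0.38 (adjusted p = 0.017) on the lower mitochondrial side and 0.27 (adjusted p = 0.395) on the higher side. Its neighbour CYP4F3, an omega-hydroxylase of leukotriene B4 in neutrophils and of fatty acids in liver, had 17.1, 17.3 and 15.8 CPM at 360 min, against 19.2, 18.2 and 17.2 CPM at 0 min (log2 difference -0.12, not called). The CPM ratio of CYP4F12 to CYP4F3 was 1.07 ± 0.05 at 360 min and 0.775 ± 0.025 at 0 min (SD, n = 3 each). CYP4F12 (15672757 to 15697174) lies next to CYP4F3 (15640897 to 15662825) on the plus strand of chromosome 19 (GRCh38, GENCODE 29). CYP4F2 averaged 4.67 ± 0.26 CPM at 360 min and 4.50 ± 0.36 CPM at 0 min, and CYP4F11 averaged 14.6 ± 1.4 CPM at 360 min and 15.9 ± 1.5 CPM at 0 min. CYP4V2, a fatty acid hydroxylase mutated in a corneal and retinal dystrophy, averaged 11.8 ± 0.89 CPM at 360 min and 11 ± 1.1 CPM at 0 min, and none of these 3 genes was called.

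Of the dehydrogenases, ADH6 rose at 360 min, with 27.2, 26.1 and 27.9 CPM at 360 min, against 24.2, 22.7 and 20.5 CPM at 0 min (fold 1.21, log2 0.27 ± 0.07, adjusted p = 0.016). ADH6 is a little-studied liver alcohol dehydrogenase. It had 21.7, 23.9 and 22.3 CPM at 10 min and 20.9, 24.0 and 23.5 CPM at 30 min, each below the 360 min libraries. The groups did not overlap, but the call was lost without replicate 3 at 0 min (log2 0.21, adjusted p = 0.071) and without replicate 3 at 360 min (log2 0.24, adjusted p = 0.061). It was kept on the lower mitochondrial side (log2 0.29, adjusted p = 0.035) and lost on the higher side (log2 0.21, adjusted p = 0.372).

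The other alcohol dehydrogenases on chromosome 4 were not called. ADH5, which also removes formaldehyde as its glutathione adduct, had 190.0, 185 and 177 CPM at 360 min, against 164, 173 and 170 CPM at 0 min, without overlap (log2 difference 0.12 ± 0.04, adjusted p = 0.0743). ADH4, which oxidises retinol and longer alcohols, averaged 6.58 ± 0.47 CPM at 360 min and 6.53 ± 0.070 CPM at 0 min. The CPM ratio of ADH6 to ADH4 was 4.12 ± 0.22 at 360 min and 3.44 ± 0.32 at 0 min, without overlap, while that of ADH6 to ADH5 was 0.147 ± 0.009 at 360 min and 0.133 ± 0.013 at 0 min (SD, n = 3 each), with overlap. ALDH1A1 had 399, 400.0 and 399 CPM at 360 min, against 374, 374 and 383 CPM at 0 min, a difference of log2 0.08 ± 0.03 that was not called (adjusted p = 0.107). ALDH2, the mitochondrial enzyme that clears acetaldehyde, had 141, 138 and 141 CPM at 360 min, against 139, 150.4 and 150 CPM at 0 min.

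**Figure D4:**
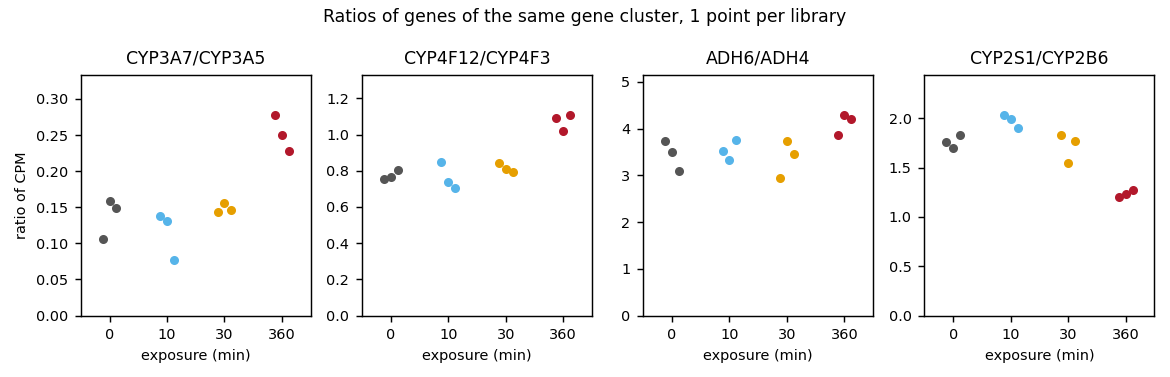
Ratio of CPM between 2 phase I genes of the same gene cluster, with 1 point per library by exposure time; each axis starts at 0. CYP3A7 to CYP3A5, CYP4F12 to CYP4F3 and ADH6 to ADH4 are higher at 360 min than at 0 min and CYP2S1 to CYP2B6 is lower, at 1.24 ± 0.04 against 1.76 ± 0.07, in each case without overlap.

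The ratios were chosen after the values were seen and are a description. An exact permutation test of 3 against 3 libraries cannot give a p under 0.1, so no conclusion is drawn from it.

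By edgeR over all 12 libraries, none of POR, EPHX1, EPHX2 and FMO5 was called at 360 min against 0 min. POR had 240.5, 232 and 254 CPM at 360 min, against 246, 260 and 258 CPM at 0 min (log2 difference -0.07 ± 0.04, adjusted p = 0.303). Among the libraries of the lower mitochondrial share alone it was called as lower (log2 -0.14, adjusted p = 0.040). EPHX1, which opens the epoxides that P450s make, had 55.1, 52.4 and 54.4 CPM at 360 min, against 59.0, 56.3 and 56.6 CPM at 0 min, without overlap (log2 difference -0.08 ± 0.04, adjusted p = 0.15). EPHX2, which opens fatty acid epoxides, averaged 42.5 ± 0.70 CPM at 360 min and 41.1 ± 1.6 CPM at 0 min. FMO5, a flavin enzyme with Baeyer-Villiger activity, had 107, 111 and 112 CPM at 360 min, against 120.2, 117 and 114 CPM at 0 min, without overlap (log2 difference -0.09 ± 0.04, adjusted p = 0.177). Against 30 min FMO5 was at log2 -0.12 ± 0.04 (adjusted p = 0.066), and DESeq2 called it as lower there (adjusted p = 0.034).

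Among the carboxylesterases, which split ester drugs and prodrugs, CES2 had 117, 112 and 118 CPM at 360 min, against 110.1, 108 and 102 CPM at 0 min. The groups did not overlap and the difference was not called (log2 0.12 ± 0.04, adjusted p = 0.0625). CES3 averaged 16.9 ± 0.94 CPM at 360 min and 16.9 ± 1.0 CPM at 0 min, and CES1 averaged 2.02 ± 0.32 CPM at 360 min and 2.06 ± 0.12 CPM at 0 min. CYP20A1, a P450 with no settled substrate, had 22.8, 20.7 and 20.4 CPM at 360 min, against 21.5, 20.2 and 18.2 CPM at 0 min. CYP39A1, which hydroxylates oxysterols on the way to bile acids, averaged 5.63 ± 0.38 CPM at 360 min and 5.32 ± 0.11 CPM at 0 min. The retinoic acid hydroxylases were near the limit of measurement, with CYP26A1 at 0.161 ± 0.045 CPM at 360 min and 0.197 ± 0.058 CPM at 0 min, and CYP26B1 at 0.193 ± 0.076 CPM at 360 min and 0.191 ± 0.036 CPM at 0 min. Of the 26 genes over 1 CPM, the 19 that were not called at 360 min lay between log2 -0.12 (CYP4F11) and 0.12 (ADH5), with standard errors of 0.03 to 0.19.

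Set against 30 min instead of 0 min, 7 of the 30 genes were higher at 360 min and 3 lower, 23.3% and 10% of the 30, where 11.4% of all genes were higher and 11.3% lower. All 7 genes called against 0 min were called again, although both comparisons share the 360 min libraries. CES2 (log2 0.15 ± 0.04, adjusted p = 0.0151) and ALDH1A1 (log2 0.12 ± 0.03, adjusted p = 0.0185) were called as higher here. CES2 had 117, 112 and 118 CPM at 360 min, against 109.8, 101 and 102 CPM at 30 min. ALDH1A1 had 399, 400.0 and 399 CPM at 360 min, against 364, 371 and 366 CPM at 30 min. CYP4F3 was called as lower, with 17.1, 17.3 and 15.8 CPM at 360 min, against 18.7, 19.3 and 18.6 CPM at 30 min (log2 -0.18 ± 0.06, adjusted p = 0.0379). At 10 min CES2 had 112, 107 and 111 CPM, ALDH1A1 had 345, 375 and 356 CPM, and CYP4F3 had 17.9, 18.7 and 17.8 CPM. None of the 360 and 30 min groups of these 3 genes overlapped.

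Several of these calls against 30 min were close to the threshold. CES2 lost it without replicate 2 or 3 at 30 min or replicate 1 or 3 at 360 min, with adjusted p of up to 0.07. Its log2 difference was 0.06 (adjusted p = 0.513) on the lower mitochondrial side and 0.22 (adjusted p = 0.057) on the higher side. ALDH1A1 lost it without replicate 1 or 3 at 30 min or replicate 1 or 2 at 360 min, with adjusted p of up to 0.076. CYP4F3 lost it without each 30 min replicate in turn or without replicate 1 or 3 at 360 min, with adjusted p of up to 0.143, and its log2 difference was -0.13 (adjusted p = 0.36) on the lower and -0.27 (adjusted p = 0.168) on the higher mitochondrial side. CYP4F12 (log2 0.22 ± 0.07, adjusted p = 0.0314) lost it without each of the 6 libraries in turn, with adjusted p of up to 0.116. CYP3A5 (log2 0.31 ± 0.10, adjusted p = 0.0417) lost it without replicate 1 or 3 at 30 min or each 360 min replicate in turn, with adjusted p of up to 0.151. ADH6 (log2 0.25 ± 0.07, adjusted p = 0.0194) lost it without replicate 1 at 30 min or replicate 1 or 3 at 360 min, with adjusted p of up to 0.089. The count of the 30 genes called was 4 to 7 without each single library, where 3024 to 3481 of all genes were called. DHRS2, CYP3A7 (log2 1.06 ± 0.17, adjusted p = 5.8e-04), CYP2S1 and CYP2B6 were called each time.

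Of 93 further phase I enzymes from textbook families, 58 could be tested. At 360 min against 0 min 10 were higher and 7 lower, where 8.89% of all genes were higher and 9.19% lower. Their median log2 difference was 0.03. The 4 with the smallest p were CYP24A1, CYP1A1, AKR1D1 and ALDH6A1. CYP24A1, which inactivates vitamin D, averaged 7.38 ± 0.77 CPM at 360 min and 28.1 ± 1.3 CPM at 0 min (log2 -1.94 ± 0.08). CYP1A1, the best-known AHR target, averaged 8.33 ± 0.36 CPM at 360 min and 2.72 ± 0.51 CPM at 0 min (log2 1.62 ± 0.17). CYP2S1 changed in the other direction, and a part of AHR in either change was not tested. AKR1D1, the bile acid reductase, changed by log2 0.47 ± 0.06, and ALDH6A1, of valine breakdown, by log2 0.34 ± 0.05.

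All 20 genes of heme synthesis, heme breakdown and electron supply were tested, with a median log2 difference of 0.02 at 360 min against 0 min. In this list 5 were higher and 3 lower, where 8.89% of all genes were higher and 9.19% lower. ALAS1, the rate-limiting enzyme of heme synthesis in liver, averaged 75.7 ± 1.5 CPM at 360 min and 55.7 ± 3.0 CPM at 0 min (log2 0.44 ± 0.04). HMOX1, the inducible heme oxygenase, averaged 53.9 ± 1.3 CPM at 360 min and 87.9 ± 8.3 CPM at 0 min (log2 -0.70 ± 0.05). FDXR, which passes electrons on to mitochondrial P450s, changed by log2 0.30 ± 0.03, and the biliverdin reductase BLVRA by log2 -0.18 ± 0.03.

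All 28 receptors and liver transcription factors were tested as well, with a median log2 difference of 0.00 at 360 min against 0 min. Of these, 3 were higher and 5 lower, beside the same 8.89% and 9.19% of all genes. AHR averaged 51.6 ± 1.7 CPM at 360 min and 66.1 ± 0.90 CPM at 0 min (log2 -0.36 ± 0.06). CEBPA, a factor of hepatocyte gene expression, averaged 128 ± 4.4 CPM at 360 min and 172 ± 7.9 CPM at 0 min (log2 -0.42 ± 0.05). The bile acid receptor NR1H4 changed by log2 0.59 ± 0.09 and FOXA2 by log2 0.25 ± 0.04. Outside the rule for naming genes, and chosen after its values were seen, NR1I2 averaged 21.7 ± 0.48 CPM at 360 min and 26.6 ± 1.7 CPM at 0 min (log2 -0.30 ± 0.05, adjusted p = 0.0021). NR1I3, chosen likewise, averaged 1.49 ± 0.56 CPM at 360 min and 1.24 ± 0.26 CPM at 0 min and was not called.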

How the data were processed

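RNA of HepG2 cells was sequenced after 0, 10, 30 and 360 min with 0.001 µM 2,4-D, in 3 biological replicates each. The p-values set differences between groups against the spread between replicates, estimated over all 12 libraries. The authors deposited raw counts per gene. The submitters' processing notes name HISAT2, DESeq2 and GRCh38; versions, counting program, strand setting and read length were not given in the sources used here. Groups came from the sample titles.

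Of 60612 genes, 17779 passed edgeR's filterByExpr. They were fitted over all 12 libraries with TMM scaling (factors 0.981 to 1.01) and tested with edgeR's quasi-likelihood test (edgeR 4.0.16, R 4.3.3), with Benjamini-Hochberg adjustment over all genes tested in each comparison and a threshold of 0.05. The biological coefficient of variation was 9.72%. RPKM used the joined length of all annotated exons of a gene from GENCODE 29, which matched 96.3% of gene IDs. Alternatives were DESeq2 1.42.0, limma voom (limma 3.58.1), other scalings and filters, the 2 compared groups alone, a replicate block, a term for the mitochondrial split, and each library left out. Limits of 3 counts cover counting error only.

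The genes, lists and alternatives were chosen with earlier results of these data known, and the fits within each mitochondrial side, the gene ratios, the related genes set beside members and the motifs were chosen after seeing the data. Genes called in any of the 5 comparisons are given in every library. The most abundant gene of a role group with no call is given in every library of 0 and 360 min. The others are given by their mean and SD or, where chosen after their values were seen, in every library of the times named. Of each other list, up to 4 genes with the smallest p at 360 min against 0 min are named. Promoters are from RefSeq for GRCh38.p14, and 30 of the 38 genes had one after chromosome 8, which holds EPHX2, was left out. Figures were drawn with matplotlib 3.10.9.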

Additional observations from a re-analysis of the deposited data

How the results depend on the processing

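No called change of a single phase I gene reversed its sign: of 322 values under alternatives, 241 were called and 81 were not. The number of phase I genes called at 10 min against 0 min was 1, where 3 of all genes were called. It became 0 with no filter (9 of all genes), with the 2 groups alone (7) and with the mitochondrial split as a term (4). Without each single library it was 0 to 1, where 1 to 25 of all genes were called. At 30 min against 0 min it was 1 (136 of all genes), and 1 without each single library (61 to 163). At 360 min against 0 min it was 7 (3215 of all genes), and 10 with DESeq2 (3477), adding CES2, ADH5 and ALDH1A1. It was 6 in the libraries of the lower mitochondrial share alone (2460), and 5 to 7 without each single library (2281 to 2714). At 360 min against 30 min it was 10 (4034 of all genes), 5 with no filter (3030) and 4 to 7 without each single library (3024 to 3481). Fits of 1 mitochondrial side that left 1 library in a group are among the 322 values and are left out of the counts of genes called. Fewer libraries enter the fits of 1 side, and otherwise the cause was not tested. The fits of each side were added after seeing the data.

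With a replicate block the counts of phase I genes called were 1, 1 and 6 at 10, 30 and 360 min against 0 min. Over all genes they were 6, 109 and 3067. At 30 against 10 min the block gave 0 (75 of all genes) and at 360 against 30 min 9 (3883). At 360 min against 0 min CYP2B6 (adjusted p = 0.055) and CYP3A5 (0.057) were not called with the block and CES2 (0.048) was. Libraries of the same number did not deviate together, with correlations of -0.054 to 0.099 over 18 pairs and 0 over 0.1, so the numbers were not taken as pairing. Counts over all genes also varied among the alternatives with more than 1 library in each compared group. They were 1 to 172 at 10 min (3 as reported), 61 to 275 at 30 min (136) and 2281 to 3501 at 360 min (3215) against 0 min. They were 30 to 290 at 30 against 10 min (102), and 3024 to 4551 at 360 against 30 min (4034). Depth limits the 8 genes too low to test and the 4 under 1 CPM.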
